A study of Homo sapiens with 6 samples.

Results

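Recurrent C-to-U editing sites, listed under RBFOX2-INSCRIBE as well as under the enzyme-only control, were examined in HEK293T cells, a line derived from human embryonic kidney. A site, meaning a genomic position on a strand, was taken when exactly 3 of the 4 RBFOX2-INSCRIBE and enzyme-only libraries listed it and neither buffer-only library did. This gave 20329 of the 635496 distinct sites in all 6 libraries. No site was listed in all 4, with or without a buffer-only listing. The authors had removed edits found across all samples as putative SNPs. Positions edited in all 4 libraries are therefore missing from the lists, and every member is a position that a library of the 4 did not list. All cells were fixed with methanol on slides, and each group has 2 libraries. In RBFOX2-INSCRIBE, a rabbit antibody against RBFOX2 was bound first and Apo1-Nb, a purified fusion of APOBEC1 to a nanobody that binds rabbit IgG, was then recruited to it. Enzyme-only cells received Apo1-Nb with no RBFOX2 antibody, and buffer-only cells received neither. RNA was read as full-length PacBio molecules, and the value of a site is its edit fraction, the share of reads carrying the edit. No read numbers came with the fractions, which leaves the depth behind each of them unknown and allows no interval. The study calls such slides technical replicates, so p-values measure only the spread between these libraries.

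APOBEC1 is a cytidine deaminase that turns cytosines of RNA into uracils. In the intestine it edits the apolipoprotein B transcript to create a stop codon, and its targets typically lie in A- and U-rich RNA with an A or U before the cytosine. RBFOX2 is a splicing regulator that binds UGCAUG. In INSCRIBE the antibody brings the enzyme to RNA that RBFOX2 binds, and the enzyme-only control records what the enzyme edits unguided. The sites described here were listed by both kinds of library. Of the HEK293T markers examined, KRT18, LIN28B, NEFL and NEFM had a listed isoform in 6 libraries, VIM in 5 and KRT8 in 0. PTPRC, CD3E, HBB, ALB and COL1A1, markers of other cell types, had 0.

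The sequences show the neighbourhood of selected members. They are the edited strand 5′ to 3′ in GENCODE release 44 on hg38, written with T for U. The first set holds the 10 members with the highest edit fraction in their lowest library, leaving out members over 80% in any library, and so stands far above the usual member, whose median fraction was 0.331%. Capitals mark the edited cytosine in the middle with the base on either side.
CGN, coding sequence, chr1:151519188-151519208, plus strand: ctttgaggaACGggagcgcca
CHD6, coding sequence, chr20:41421370-41421390, minus strand: ggccctgagGCAgaaatagct
RBM3, 3′-UTR, chrX:48580857-48580877, plus strand: cattggttgACAataagccag
RPS6KB1, 3′-UTR, chr17:59948581-59948601, plus strand: aatgattggACAtacaccttt
RBL2, 3′-UTR, chr16:53491399-53491419, plus strand: ttattaatcACTattgttcca
SYNCRIP, coding sequence, chr6:85615282-85615302, minus strand: aacaagaggTCGagggcgtgg
opposite to VHL, 3′-UTR, chr3:10151028-10151048, minus strand: aattggccaGCGtggtggcag
FAM13B, 3′-UTR, chr5:137938851-137938871, minus strand: catgcaatgACTcatgcatgg
PLEKHA3, 3′-UTR, chr2:178505167-178505187, plus strand: ctggtgaagACAcaaatgaag
ENSG00000290450, noncoding isoform, chr17:30634962-30634982, plus strand: tgctcctaaTCCaaccttatt
An A or T stood before the C in 8 of the 10 and a G in CHD6 and in the VHL site, which lies on the strand opposite to VHL. The next set holds windows of at most 30 nt in which 5 cytosines were members, and capitals mark those cytosines. They were chosen after their values were seen, as the windows with the highest edit fractions among 19 such windows in 18 genes.
TRIM33, 3′-UTR, chr1:114393277-114393306, minus strand: atCtaCtacattttaaaaCaCagtgaaaCa
SMIM15, 3′-UTR, chr5:61159435-61159462, minus strand: ttCttagaatCatttCtggctttCtCaa
HNRNPA0, 3′-UTR, chr5:137752301-137752330, minus strand: ttCtatgaCaatttacttCaaaCtgtgtaC
CMTM6, 3′-UTR, chr3:32483412-32483441, minus strand: aaCatatattaCCaggctttaCtgtatttC
ABCE1, coding sequence, chr4:145117316-145117345, plus strand: atCtaagtgtattagaCtatCtCtccgaCt
EIF1AX, 3′-UTR, chrX:20126649-20126678, minus strand: aaCaattCtcttCattggtattCtaaaCct
In the first 4 windows 5 of the 6 cytosines were members, and in ABCE1 and EIF1AX 5 of 7 were. Windows with 4 members numbered 189 in 121 genes.

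Recurrent sites were edited in a small share of reads. The median edit fraction of members was 0.348% in RBFOX2-INSCRIBE replicate 1 and 0.339% in replicate 2. It was 0.395% in enzyme-only replicate 2 and 0.298% in enzyme-only replicate 3. The enzyme-only libraries thus lay on both sides of the RBFOX2-INSCRIBE libraries, and the mean of the 2 group medians differed by -0.00273 percentage points (two-sided exact permutation test, p = 1, smallest possible p with 2 against 2 libraries 0.333). All other sites of the same libraries had higher medians, between 0.676% and 0.833%. A site is listed only where it was edited, so each value is conditional on listing, and how many edited reads a listing took is not known. Enzyme-only replicate 2 listed the fewest sites, and 11733 members were those that it lacked, whereas 4357 lacked enzyme-only replicate 3, 2127 lacked RBFOX2-INSCRIBE replicate 1 and 2112 lacked replicate 2. Members made up 8.74% and 8.55% of the sites under RBFOX2-INSCRIBE and 9.46% and 9.95% of those without the antibody.

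**Figure D1:**
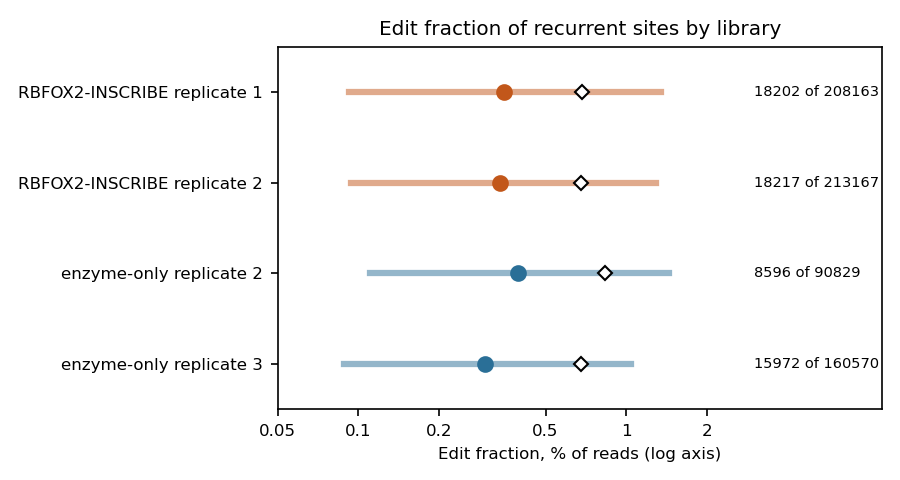
Edit fraction of the recurrent sites in each library, as a percentage of reads on a log axis. Filled circles are medians of the members, bars run from the 10th to the 90th percentile, open diamonds are medians of all other sites of the library, and the numbers at the right are members of all sites. The 4 member medians lie between 0.298% and 0.395%, all below the open diamonds.

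Fractions of the same member were compared library by library. Over the 16090 members in both RBFOX2-INSCRIBE libraries, the median log2 ratio of replicate 1 to replicate 2 was 0.01, with an SD of 1.1 across sites. Over the 4239 members in both enzyme-only libraries, replicate 2 was above replicate 3 by a median log2 ratio of 0.56. Setting RBFOX2-INSCRIBE replicate 1 against the enzyme-only libraries gave -0.37 for replicate 2 and -0.03 for replicate 3, and RBFOX2-INSCRIBE replicate 2 gave -0.43 and -0.06. The shift between the enzyme-only libraries thus exceeded each shift between the groups. Pearson's r of log2 fractions across sites was 0.712 between the RBFOX2-INSCRIBE libraries, 0.777 between the enzyme-only libraries and 0.691 to 0.720 between the groups, where sites are not independent replicates and share the same isoforms. Within a member the highest fraction was a median 2.29 times the lowest. The highest fraction exceeded 2% at 1919 members (9.44%), 5% at 257 and 10% at 52. All 3 listed fractions were at least 2% at 221 members and at least 5% at 16.

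The base before the edited cytosine was A at 57.9% of members, U at 33.8%, G at 6.56% and C at 1.77%. An A or U stood there at 91.7% of members, at 82.3% of sites listed in 2 of the 4 libraries and at 65.5% of sites listed in 1. Neither of the latter sets held a site with a buffer-only listing. Sites listed in both RBFOX2-INSCRIBE libraries and no other library were close to the members, with an A or U at 88.7%. For sites in both enzyme-only libraries alone it was 69.9%. The share was 52.8% among all exonic cytosines of the isoforms that held members. The 2285 sites that both buffer-only libraries listed, with no enzyme present, and that none of the 4 other libraries listed had an A or U at 28.4% and a G at 51.1%. In RBFOX2-INSCRIBE replicate 1, 92.3% of members and 70.7% of other sites followed an A or U. The pairs were 92.4% and 72.1% in RBFOX2-INSCRIBE replicate 2, 88.4% and 58.2% in enzyme-only replicate 2, and 91.8% and 65.6% in enzyme-only replicate 3. Members were thus higher in 4 of 4 libraries, by a mean of 24.6 ± 4.52 percentage points (SD, n = 4). The two-sided exact permutation test by sign flips gave p = 0.13, the smallest that 4 libraries allow, and an adjusted p of 0.25 over 8 comparisons. The libraries share members, so the 4 differences are not independent. Other sites could be listed in 1 library alone or in a buffer-only library, which the rule forbids for members. Sites in 3 of the 4 libraries that also had a buffer-only listing had an A or U at 68.3%. The difference is thus tied to the selection, and the test cannot decide about it.

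**Figure D2:**
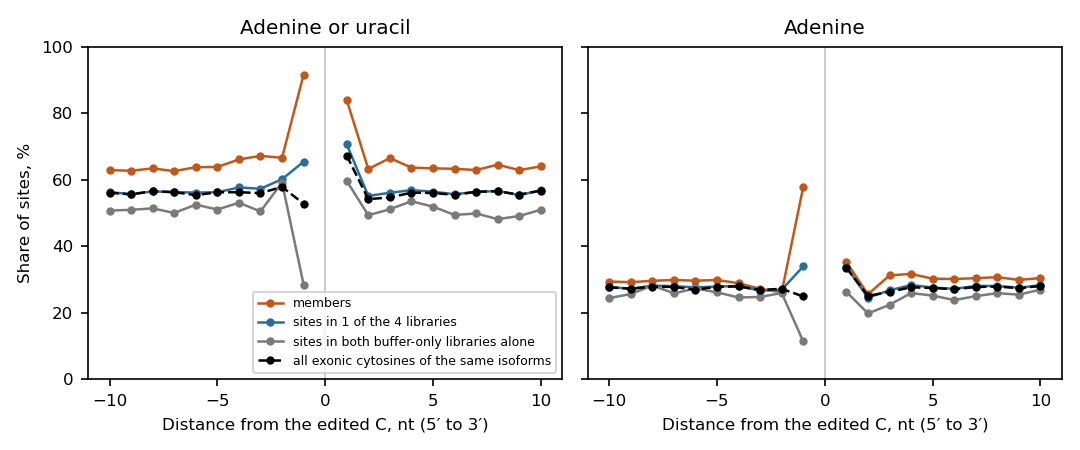
Share of sites with adenine or uracil (left) and with adenine (right) at each distance from the edited cytosine, in percent, for members, for sites listed in 1 of the 4 libraries, for sites of both buffer-only libraries alone and for all exonic cytosines of the same isoforms (dashed). The members rise to 91.7% adenine or uracil just before the cytosine, where the buffer-only sites fall to 28.4%. Sites listed in 1 of the 4 libraries leave out those with a buffer-only listing.

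The base after the cytosine was U at 48.8% and A at 35.2% of members. An A or U flanked the edited cytosine on both sides at 78.7% of members, at 49.0% of sites listed in 1 library and at 17.7% of sites in both buffer-only libraries alone. The share was 73.9% at sites in both RBFOX2-INSCRIBE libraries alone and 53.6% at sites in both enzyme-only libraries alone. Per 1000 occurrences in the same isoforms, ACU was a member 33.5 times, ACA 21.5 times, ACG 18.6 times and UCU 15.5 times. At the other end, CCC was a member 0.327 times per 1000. With 1 further base on each side, UACUU led with 50.4 per 1000, or 764 of 15157 occurrences, followed by UACUA with 44.9 and GACUU with 44.6. The A or U share rose with the fraction, from 82.7% at the 6005 members with a median under 0.2% to 97.1% at the 1809 members between 1% and 2%. It was 84.5% at the 59 members of 5% or more. The whole mooring sequence of the apolipoprotein B site lay in the 30 nt after the cytosine of 0 members. Its first 6 bases, UGAUCA, did at 145 members (0.714%), against 0.708% of all cytosines of the isoforms.

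Recurrent sites lay mainly in 3′-UTRs. Of 20192 members on the strand of their isoform, 14744 (73.0%) were in the 3′-UTR, 4666 (23.1%) in coding sequence, 250 (1.24%) in the 5′-UTR and 532 in isoforms of another type than protein-coding, such as long noncoding RNAs, retained introns and nonsense-mediated decay isoforms. A further 106 members lay on the opposite strand and 31 had no sequence context. Sites in both RBFOX2-INSCRIBE libraries alone were alike, with 72.3% in the 3′-UTR, and sites in both enzyme-only libraries alone had 50.3% there. Per 1000 cytosines of each region, the 3′-UTR held 13.6 members, coding sequence 5.43 and the 5′-UTR 1.73. All sites listed in the 4 libraries were less uneven, with 183, 144 and 81.4 per 1000 cytosines, and members were 7.42% of the listed sites in the 3′-UTR, 3.76% in coding sequence and 2.13% in the 5′-UTR. The order was the same in both base contexts, but after a G or C the 3′-UTR and coding sequence were close. The part of base context in the regional pattern was not tested. Among cytosines after an A or U, the 3′-UTR held 22.8 members per 1000, coding sequence 9.49 and the 5′-UTR 3.32. Among cytosines after a G or C, the values were 1.85, 1.72 and 1.21. Within libraries, the 3′-UTR held 74.1% of members and 57.1% of other sites in RBFOX2-INSCRIBE replicate 1, 74.3% and 58.1% in replicate 2, 68.5% and 47.0% in enzyme-only replicate 2, and 72.7% and 50.8% in enzyme-only replicate 3. The mean difference was 19.2 ± 2.96 percentage points (SD, n = 4; two-sided exact permutation test by sign flips, p = 0.13, adjusted p = 0.25). It was 8.09 for the members that lacked RBFOX2-INSCRIBE replicate 2 and 9.94 for those that lacked replicate 1, with the remaining members counted among the other sites. As with the base context, other sites could have a buffer-only listing or be in a single library. The mean difference is thus tied to the selection, and the test cannot decide about it.

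Members thinned out along the 3′-UTR. When each 3′-UTR was cut into 10 equal parts, the part next to the stop codon held 19.1 members per 1000 cytosines, the fifth 12.8 and the last 9.18. With cytosines after an A or U alone, density fell from 32.2 to 14.9 per 1000. All listed sites fell alongside, from 241 to 141 per 1000 cytosines, and members were 7.93% of the listed sites in the first of these parts and 6.51% in the last. How reads were spread along the 3′-UTR is not part of the values, and its part in this slope was not tested.

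**Figure D3:**
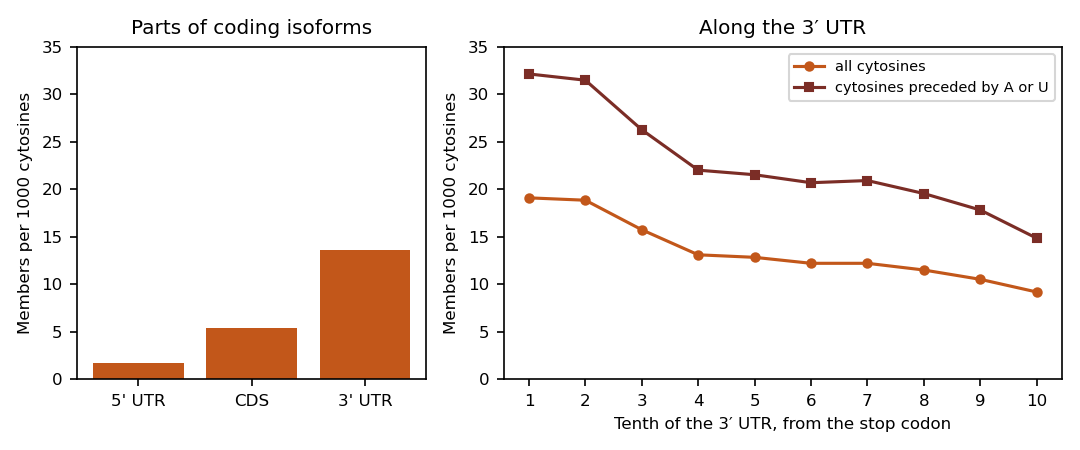
Recurrent sites per 1000 cytosines in the 5′-UTR, coding sequence (CDS) and 3′-UTR of coding isoforms (left), and in 10 equal parts of the 3′-UTR from the stop codon to its end (right), for all cytosines and for those preceded by A or U. Density falls from 19.1 in the first part to 9.18 in the last.

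Within coding sequence, 4655 members could be placed in a codon. A C-to-U change there was synonymous at 2070 (44.5%), changed the amino acid at 2265 (48.7%) and made a stop codon at 320 (6.87%) in 223 genes. All coding cytosines of the same isoforms gave 38.1%, 53.6% and 8.29%. Per 1000 cytosines whose change would have the effect, 6.36 synonymous, 4.95 missense and 4.52 stop-gaining cytosines were members, and after an A or U these were 11.1, 8.67 and 7.41. Of the codons that can turn into a stop, CGA held 7.26 members per 1000 (71 members), CAA 5.30 (110) and CAG 3.45 (139). No test was made of these differences. The stop-gaining members with the highest median fraction, after SYNCRIP above, are shown because they mark where a read would end its open reading frame, with capitals as in the first set.
NDUFAF4, coding sequence, chr6:96891105-96891125, minus strand: gaaagcaatACGatcaaaatg
CD46, coding sequence, chr1:207757607-207757627, plus strand: gtttggttaTCAgatgcactt
GTF3C3, coding sequence, chr2:196789908-196789928, minus strand: gtctctggaACAagacaatat
SNX27, coding sequence, chr1:151612387-151612407, plus strand: cgagggcggGCAactgcggag
NDUFAF4, a complex I assembly factor, had a CGA codon at residue 173 edited at 3.5% and 11.3% in the RBFOX2-INSCRIBE libraries and 2.97% in enzyme-only replicate 2. CD46, a complement regulator, had CAG at residue 122 edited at 2.86% in RBFOX2-INSCRIBE replicate 1 and at 5.26% and 3.32% in the enzyme-only libraries. Both RBFOX2-INSCRIBE values were above the enzyme-only value at NDUFAF4, and the single one at CD46 was below both. GTF3C3, a subunit of TFIIIC, had CAA at residue 230 edited at 1.80% and 2.52% in RBFOX2-INSCRIBE and 1.06% in enzyme-only replicate 3. SNX27, an endosomal sorting nexin, had CAA at residue 66 edited at 2.33% and 1.23% in RBFOX2-INSCRIBE and 1.75% in enzyme-only replicate 2. The latter overlapped, whereas GTF3C3 was higher in both RBFOX2-INSCRIBE libraries. Each call rests on 3 values.

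UGCAUG lay within 50 nt of 1027 members (5.06%), searched as those 6 letters on the edited strand alone, and of 2.58% of all cytosines in the same isoforms. In RBFOX2-INSCRIBE replicate 1 the motif was near 5.39% of members and 4.11% of other sites, and in replicate 2 near 5.39% and 4.14%. It was near 4.06% and 2.20% in enzyme-only replicate 2 and near 4.84% and 2.25% in enzyme-only replicate 3. Members exceeded other sites in 4 of 4 libraries, by a mean of 1.75 ± 0.629 percentage points (SD, n = 4; two-sided exact permutation test by sign flips, p = 0.13, adjusted p = 0.25). By the rule every member of an enzyme-only library was also in an RBFOX2-INSCRIBE library, a condition that other sites did not have to meet. The excess is thus tied to the selection, and the test cannot decide about it. The RBFOX2-INSCRIBE libraries' members exceeded those of the enzyme-only libraries by 0.944 percentage points (exact permutation test over 2 against 2 libraries, p = 0.333, the smallest possible, adjusted p = 0.381).

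The value depended on which library a member lacked. The motif was near 5.80% of members that lacked enzyme-only replicate 2 and 5.86% of those that lacked enzyme-only replicate 3, both of which were in both RBFOX2-INSCRIBE libraries. It was near 2.21% of members that lacked RBFOX2-INSCRIBE replicate 1 and 2.19% of those that lacked replicate 2. For the latter pair of classes the difference from other sites of their 3 libraries turned to -0.841 and -0.858 percentage points. Here the other sites included the remaining members, unlike in the comparison above. Sites listed in both RBFOX2-INSCRIBE libraries alone had the motif near 8.15%, and sites in both enzyme-only libraries alone near 1.73%. The share also rose with the edit fraction, from 2.66% of members with a median under 0.2% to 14.6% of the 556 between 2% and 5% and 22.4% of the 59 of 5% or more.

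Distance gave the same division. Members in both RBFOX2-INSCRIBE libraries reached 2.40 times their mean density per cytosine in the 20 nt before the motif and 2.68 times in the 20 nt after it. At 181 to 200 nt the values were 1.31 and 1.34. Members in both enzyme-only libraries stood at 0.584 and 0.839 times their mean density next to the motif, from 13 and 19 members, and at 1.03 and 1.41 at 181 to 200 nt. Sites in both classes were chosen by where they were listed, so these are descriptions with no test.

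**Figure D4:**
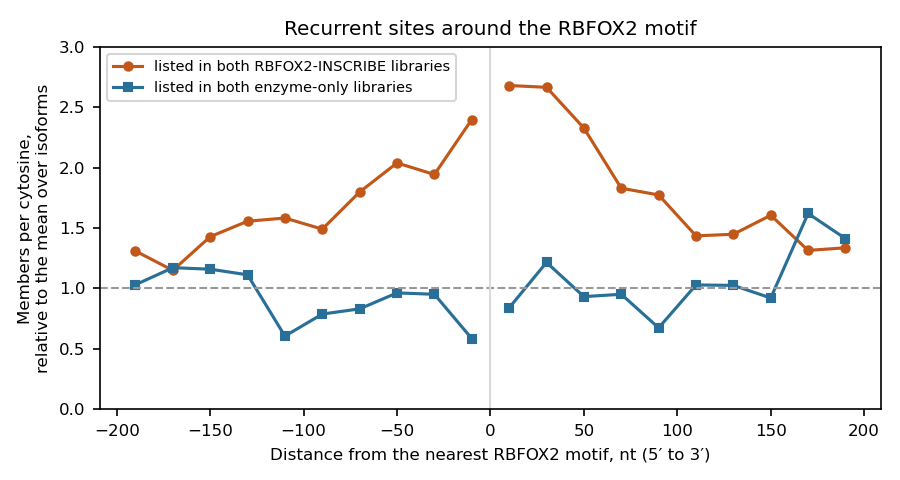
Density of recurrent sites per cytosine in bins of 20 nt from the nearest UGCAUG, divided by the mean density of the same class over all isoforms with members, so that 1 (dashed) is that mean. Members listed in both RBFOX2-INSCRIBE libraries (circles) peak at 2.68 just after the motif, and members listed in both enzyme-only libraries (squares) stay between 0.584 and 1.62.

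Members next to the motif with a median of at least 2% in both groups are shown because their edited base all but touches UGCAUG. Capitals mark the edited cytosine with its neighbours.
STRADA, noncoding isoform, chr17:63726797-63726817, minus strand: cctaactgtACTgcatgattc
SNHG20, noncoding isoform, chr17:77094846-77094866, plus strand: acattctccTCTgcatgcttg
GJA1, 3′-UTR, chr6:121449536-121449556, plus strand: cacttttctTCTtgcatgcat
STRADA, which encodes a pseudokinase partner of the kinase LKB1, was edited 1 nt from the motif at 3.45% and 2.38% in RBFOX2-INSCRIBE and 2.56% in enzyme-only replicate 3. SNHG20, a long noncoding RNA, was edited 1 nt from it at 4.76% and 5% in RBFOX2-INSCRIBE and 5% in enzyme-only replicate 3. GJA1, which encodes connexin 43, was edited 2 nt from it at 2.08% and 5% in RBFOX2-INSCRIBE and 2.70% in enzyme-only replicate 2. The enzyme-only value fell within or at the RBFOX2-INSCRIBE values at each. Of 345 members with a median of at least 2% in both groups, 64 had UGCAUG within 100 nt. Over all members, 1865 (9.19%) had it within that distance.

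Recurrent sites lay close together. Another member lay within 50 nt of 11885 members (58.5%), within 25 nt of 40.9% and within 100 nt of 72.3%. Among all sites of a library, another site of that library lay within 50 nt at 75.7% in each RBFOX2-INSCRIBE library and at 57.5% and 69.9% in the enzyme-only libraries, but those sets are larger and denser. For members and other sites of chromosome 1, the predicted probability that the edited cytosine was unpaired was computed with 50 nt of spliced sequence on each side. It was 50.9% at members and 46.5% at other sites in RBFOX2-INSCRIBE replicate 1, 50% and 47.3% in replicate 2, 48.4% and 44.5% in enzyme-only replicate 2, and 49.8% and 45.2% in enzyme-only replicate 3. The mean difference of 3.93 ± 0.827 percentage points (SD, n = 4; two-sided exact permutation test by sign flips, p = 0.13, adjusted p = 0.25) was 0.404 among sites with A or U on both sides, where enzyme-only replicate 2 and RBFOX2-INSCRIBE replicate 2 were below 0. The limit of selection given for the base context applies to this test as well.

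Members were found in 2306 of the 7524 genes with any listed site. There was 1 member in 625 genes and at least 10 in 608, and the latter held 15046 members (74.5%). IRS4, an insulin receptor substrate, had the most with 169, of which 168 were in its 3′-UTR. Its members had a median of 0.0992% in RBFOX2-INSCRIBE replicate 1, 0.0932% in replicate 2, 0.121% in enzyme-only replicate 2 and 0.116% in enzyme-only replicate 3. EIF1AX, a translation initiation factor that helps select the start codon, had 109, with medians of 0.281% and 0.307% under RBFOX2-INSCRIBE against 0.206% and 0.175% without the antibody. For IRS4 every enzyme-only value lay above, and for EIF1AX below, those of RBFOX2-INSCRIBE. RAB10, a GTPase of vesicle transport, had 70 members, with medians of 0.260% and 0.271% against 0.236% and 0.190%. MTPN, which encodes myotrophin, had 69, with 0.238% and 0.265% against 0.118% and 0.155%. In both genes the groups did not overlap. FAM199X had 75 members, MED13 of the Mediator complex 74, the DNA-binding protein gene NUCKS1 67 and SERBP1, which encodes an RNA-binding protein of ribosomes, 66. KCTD12, a GABA-B receptor auxiliary subunit, and U2SURP, a U2 snRNP-associated protein, had 65 each, and ACTR2 of the Arp2/3 complex, the ubiquitin ligase gene MIB1, the actin bundling gene PLS3 and TOMM20 of the mitochondrial import machinery had 64 each. ACTR2 members had medians of 0.190% and 0.1377% under RBFOX2-INSCRIBE against 0.122% and 0.1376% without the antibody, with the nearest libraries all but equal. TOMM20 members had 0.130% and 0.115% against 0.0760% and 0.0848%, and PLS3 members 0.117% and 0.123% against 0.166% and 0.135%, and neither overlapped. In the other genes the library medians of the groups overlapped. These gene medians cover only the members listed in a library, and no test was made of them. In MTPN these were 68 and 68 members under RBFOX2-INSCRIBE and 21 and 50 in enzyme-only replicates 2 and 3. Medians of 2 against 2 libraries can separate by chance, and the share of all genes with members that did so was not counted. The separations are therefore not a result about these genes.

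**Figure D5:**
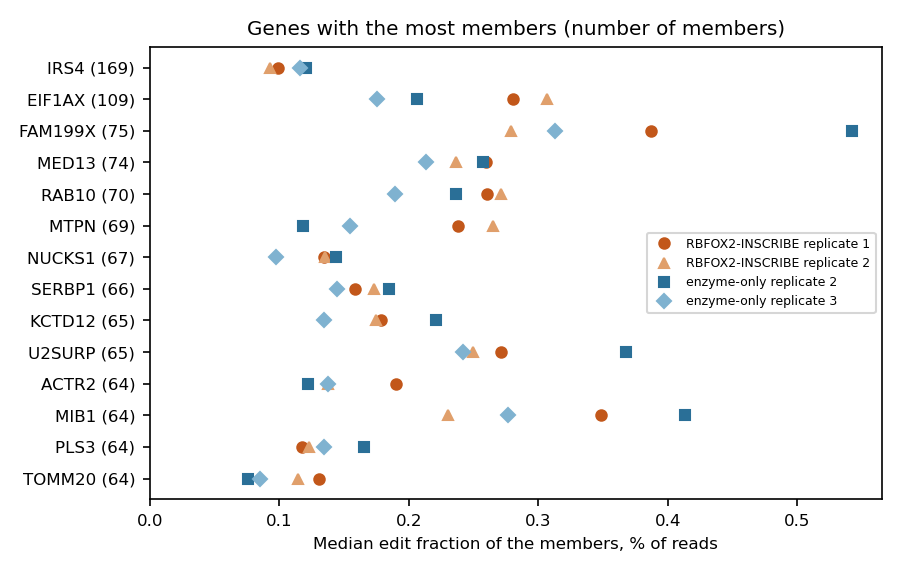
Median edit fraction of the members of the 14 genes with the most members, as a percentage of reads, with 1 point for each library and the number of members in parentheses. EIF1AX, RAB10, MTPN and TOMM20 are higher in both RBFOX2-INSCRIBE libraries and IRS4 and PLS3 are lower, ACTR2 has libraries of both groups at about 0.138%, and the remaining genes overlap. Such separations can arise by chance and were not tested.

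Per cytosine the order changed. PRDX3, a mitochondrial peroxiredoxin, held 187 members per 1000 cytosines of its isoform, so that 58 of 310 were recurrent sites. EIF1AX followed with 152, MZT1 of the γ-tubulin complex with 149, SRP9 of the signal recognition particle with 143, the glyoxalase gene GLO1 with 142, the clamp loader subunit RFC3 with 132, PCNP with 125 and CAPZA1, an actin capping subunit, with 124. The median of genes with at least 10 members was 28.1 per 1000. PRDX3 members had medians of 0.188% and 0.183% under RBFOX2-INSCRIBE against 0.0704% and 0.0685% without the antibody, which did not overlap. SRP9 gave 0.20% and 0.180% against 0.0703% and 0.117%. PCNP went the other way, with 0.198% and 0.192% under RBFOX2-INSCRIBE against 0.227% and 0.225%. GLO1 gave 0.0870% and 0.0935% against 0.0919% and 0.102%, and here the groups overlapped. They also overlapped in MZT1, RFC3 and CAPZA1. The limits given above for gene medians apply to these genes as well.

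Members were counted in gene families. Over all 7524 genes members numbered 2.88 per 1000 cytosines and made up 3.95% of the listed sites. Transcripts of cytosolic ribosomal proteins held 59 members in 13 of 75 genes, 2.29 per 1000 cytosines, or 2.15% of their listed sites. Translation factors held 468 members in 31 of 53 genes (12.6 per 1000, 6.72%). The 109 of EIF1AX were the most, followed by 36 in the cap-binding factor EIF4E and 32 each in EEF1A1 and EIF4B. Chaperones held 575 in 32 of 54 genes (15.2 per 1000, 7.55%), led by HSPA5 of the endoplasmic reticulum with 45, CCT4 of the cytosolic chaperonin with 42 and HSPD1 of the mitochondria with 40. The hnRNP and SR proteins, which bind pre-mRNA, held 497 in 25 of 32 genes (19.0 per 1000, 7.56%), led by SRSF1 with 56, SRSF10 with 53 and HNRNPK with 44. Histones held 83 in 6 of 9 genes (19.4 per 1000, 6.55%), with 23 in H3-3B. Proteasome genes held 75 (5.78 per 1000, with 22 in PSMD12) and glycolysis 70 (8.32 per 1000, with 22 in PGAM1), and as 3.83% and 4.16% of their listed sites these were near the 3.95% of all genes. Tubulins and actins held 63 (10.1 per 1000, 5.34%, with 34 in ACTB). Targets and cofactors of APOBEC1 held 3 members in 2 of 3 genes (0.603 per 1000, 0.713%), 2 in KHSRP and 1 in SYNCRIP. The RBFOX family held 0, but only 1 of its genes was listed, with 2 sites, which is too few to read. No mitochondrially encoded gene was listed. The differences between families were not tested, and the read numbers of the genes, which decide how low a fraction can be listed, are not part of the values.

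The place of members differed between genes of the lists. CCT8 had 29 of its 30 members in coding sequence, TCP1 34 of 38, HSPA4 21 of 21 and ACTB 24 of 34. SRSF10 had 51 of its 53 in the 3′-UTR, SRSF1 44 of 56 and EIF4B 31 of 32. ACTB members had library medians from 0.0165% to 0.0341%. SRSF10 members lay between 0.568% and 0.719% and SRSF7 members between 0.403% and 0.870%. HSPA9, a mitochondrial chaperone with 21 members, had a median of 2.31% in enzyme-only replicate 2, where only 6 of them were listed. Its medians were 0.161% to 0.323% in the other libraries, which listed 17 to 20.

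Single sites reached high fractions in a few places. CGN, which encodes the tight junction protein cingulin, had an arginine codon, CGG at residue 227, edited at 75% in RBFOX2-INSCRIBE replicate 1 and at 33.3% in replicate 2 and in enzyme-only replicate 3. CHD6, a chromatin remodeler, had an alanine codon at residue 1752 edited at 37.5%, 50% and 20% in the same libraries. RBM3, a cold-inducible RNA-binding protein, was edited in its 3′-UTR at 20% in RBFOX2-INSCRIBE replicate 1 and 50% and 20% in the enzyme-only libraries. RPS6KB1, the S6 kinase, had a 3′-UTR site at 15% in RBFOX2-INSCRIBE replicate 2 and 57.1% and 27.3% in the enzyme-only libraries. The groups overlapped at CGN and RBM3, both RBFOX2-INSCRIBE values were above the enzyme-only value at CHD6, and the single RBFOX2-INSCRIBE value was below both others at RPS6KB1. SYNCRIP, an RNA-binding protein known to associate with APOBEC1, had an arginine codon, CGA at residue 446, whose change gives a stop. It was edited at 8.89% and 8.99% in RBFOX2-INSCRIBE and 8.89% in enzyme-only replicate 3, the narrowest range among the 10 sites of this kind. RBL2, a retinoblastoma-like protein, reached 11.1%, 25% and 25%, and FAM13B, whose site lay 4 nt from UGCAUG, 26.9%, 13.2% and 8.33%, each in both RBFOX2-INSCRIBE libraries and enzyme-only replicate 2. PLEKHA3 reached 22.2% in RBFOX2-INSCRIBE replicate 1 and 50% and 7.69% in the enzyme-only libraries. A site opposite to VHL on the minus strand and a long noncoding RNA, ENSG00000290450, completed the 10, with lowest fractions of 8.33% and 5.56%. Members over 80% in a library numbered 3. Of these, chosen after their values were seen, GCN1 was at 100% in both RBFOX2-INSCRIBE libraries and enzyme-only replicate 2, and GOLGA8B, which has near-identical copies in the genome, at 100%, 100% and 25% in the same libraries. The other, in the noncoding RNA XIST, was at 0.617% in RBFOX2-INSCRIBE replicate 2 and at 100% and 0.781% in the enzyme-only libraries.

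Site by site, no difference in fraction between the groups passed the test. In limma on log2 edit fractions, 0% of the 26840 sites in 3 libraries were called at an adjusted p of 0.05, and 0 of the 20329 members. At an unadjusted p under 0.05 there were 1308 sites in all (4.87%) and 912 members (4.49%), where evenly spread p-values give 5%. Of the 912 members, 505 were higher and 407 lower in RBFOX2-INSCRIBE, a balance that turned to 467 and 499 with each library centred on its median and to 8 and 20 at fractions of at least 2% in all 3 libraries. The members' median log2 difference was -0.02, and that of all sites tested was -0.03. Each site has 3 values, and a difference that misses the threshold does not show that the fractions were equal. The member with the smallest p, in the 5′-UTR of NPM1, which encodes nucleophosmin, was listed at 0.0343% and 0.0488% in RBFOX2-INSCRIBE and 3.33% in enzyme-only replicate 3 (log2 difference -6.35, SE 0.60, limma adjusted p = 0.775). PABPC1, the cytosolic poly(A)-binding protein, YWHAQ, a 14-3-3 protein, RCN2, an endoplasmic reticulum protein, and SCAMP1 followed. In each, 1 enzyme-only library was above both RBFOX2-INSCRIBE libraries with log2 differences, RBFOX2-INSCRIBE minus enzyme-only, of -5.52 to -5.29 and the same limma adjusted p. Each of these differences rests on a single enzyme-only value. NPM1 and PABPC1, like EEF1A1 above, have near-identical copies in the genome, so their reads could have been split between loci.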

How the data were processed

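Long-read edits of 2 RBFOX2-INSCRIBE, 2 enzyme-only (replicates 2 and 3 by their titles) and 2 buffer-only libraries were used. Per the labels the line is HEK293T in the titles and HEK293XT in the cell line field, and the build is hg38. The authors made consensus reads with ccs, split, trimmed and refined them with skera, lima and refine, aligned them with pbmm2 and assigned them uniquely to isoforms with IsoQuant. They kept primary alignments on the correct strand, called C-to-U edits with their own scripts, and removed dbSNP positions and edits shared by all samples. Whether buffer-only libraries entered that step, the minimum reads for a listing and the annotation version are not given in the sources used here. The deposited values are fractions of edited reads per isoform and position, with no read numbers, so depth and precision are unknown.

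Fractions of a site on several isoforms were averaged (17724 members were on 1 isoform). Isoform sequences and regions came from GENCODE release 44. Limma (R 4.3.3, limma 3.58.1; robust eBayes with a trend, Benjamini-Hochberg adjustment over 26840 sites) was tested on simulated data. Exact permutation tests of 2 against 2 libraries used scipy 1.17.1, and all sign flips were enumerated in Python 3.11.15 with numpy 2.4.6. Values were handled with pandas 2.3.3, and pairing probabilities came from ViennaRNA 2.7.2. Figures used matplotlib 3.10.9. Densities per 1000 cytosines of a gene used its isoform with the most members. Named were the 12 genes with the most members (14 with ties), the 8 densest with at least 10 members, the 10 members with the highest lowest fraction and none over 80%, the 5 stop-gaining members with the highest median, the 5 smallest limma p-values, the 3 members nearest UGCAUG at 2% in both groups, and examples of the 41 list genes with at least 20 members. Members and lists were chosen with earlier results of these data known. Alternatives covered the listing rule, isoform handling, windows, fraction scale and leaving out each library. A gene that falls under the rule is not reported here. Other assays of the study were not analysed here.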

Additional observations from a re-analysis of the deposited data

How the results depend on the processing

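Of 55 alternative values, 39 kept the direction of the reported one or, for counts, a similar size. The number of recurrent sites was 238 when only listings with an edit fraction of at least 0.02 counted. Leaving out a library in turn, so that a site had to be in the other 3 alone, gave from 2112 sites for RBFOX2-INSCRIBE replicate 2 left out up to 11733 for enzyme-only replicate 2 left out. The excess of UGCAUG near members over other sites ranged from -0.858 to 2.33 percentage points with a library left out, below 0 without either RBFOX2-INSCRIBE replicate (-0.841 and -0.858). In these values the remaining members counted as other sites, so they are not fully comparable with the reported excess. The difference in median edit fraction turned to 0.0471 and 0.0336 percentage points for members listed in enzyme-only replicate 3 and in RBFOX2-INSCRIBE replicate 1 or 2, and ranged from -0.0515 to 0.0461 when a library was left out. Limma called 5 sites, of which 1 member (GOLGA8B, higher in RBFOX2-INSCRIBE), on the log2 scale of the fraction over 1 minus the fraction. It called 0 to 16 when a library was left out: 16 of 2961 (8 of them members) without RBFOX2-INSCRIBE replicate 1, 14 of 3023 (8 members) without replicate 2 and 0 without either enzyme-only library. There the group with 1 library was assumed to vary like the other, so these counts rest on the spread between the remaining pair alone. The share of members with a neighbour was 40.9% within 25 nt and 72.3% within 100 nt. Analyses were added after the data were seen, restricting sites by flanking bases or region. They kept the direction, and the unpaired probability difference fell to 0.404. The cause of these changes was not tested. No paired analysis was possible because the 3 values at a site leave no residual degree of freedom beside a block. The numbers also conflict, since by their titles the groups share only replicate 2, whereas another label numbers the enzyme-only libraries 1 and 2. Without read numbers, the error of each fraction and the effect of depth on listing could not be measured.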
